A study of Mus musculus with 3 samples.

Results

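B cells were a rare component of the dissociated medial prefrontal cortex. A cell barcode was counted as a B cell when it held at least 2 unique molecular identifiers (UMIs, each standing for 1 captured RNA molecule) of Cd79a, which encodes a signalling subunit of the B cell receptor. It also had to show at least 500 genes, at most 15% mitochondrial UMIs, and little RNA of other cell types: fewer than 10 UMIs per 10000 of the microglial genes C1qa and Cx3cr1 summed, at most 1 UMI of the neuronal gene Slc17a7, at most 5 UMIs per 10000 of Cldn5, Mog and Gja1 summed (endothelial, oligodendrocyte and astrocyte genes), and at most 1 UMI over the T cell genes Cd3e, Cd3d and Cd3g. Of 44180 barcodes that passed the gene and mitochondrial limits, 55 met the rule. They were 14 of 12981 barcodes in the estrus library, 18 of 14855 in the diestrus library and 23 of 16344 in the male library.

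B cells make antibodies. Each carries a B cell receptor, a membrane immunoglobulin of paired heavy and light chains bound to the subunits encoded by Cd79a and Cd79b, and antigen binding is relayed inside the cell by the kinases Lyn, Syk and Btk. A B cell also takes up what its receptor binds and displays peptides of it to T cells on MHC class II molecules. In the rodent brain, B cells are known mainly from the meninges and the blood within vessels, with few in the healthy parenchyma, and a dissociated cortex can hold any of these.

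The study sequenced single cells of mouse medial prefrontal cortex from females in estrus, females in diestrus and males, with 1 library per group and 2 pooled mice per library. Tissue was digested with papain, cleared on 30% Percoll and loaded at 15000 cells per library on the 10x Genomics 3′ v3.1 chemistry; the labels give no treatment, strain, genotype or age, and name no perfusion and no sort. They call the material total neurons of this region, whereas the files held 8291 barcodes with a microglial profile, 350 with a border macrophage profile (C1qa and Mrc1, macrophages of the meninges and vessels), 47 with a T cell profile (at least 2 Cd3 UMIs) and the B cells. Because a group was 1 library, differences between estrus, diestrus and male have no replicate check and no test, and 2 mice pooled in a library cannot be told apart.

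The share of B cells among barcodes past the gene and mitochondrial limits was 0.108% in estrus (exact Clopper-Pearson 95% interval 0.0590% to 0.181%), 0.121% in diestrus (0.0718% to 0.191%) and 0.141% in males (0.0892% to 0.211%). The 3 intervals overlapped, and they cover counting error only. Median depth of the members was 3304.5 UMIs in estrus, 3888.5 in diestrus and 2642 in males, below that of T cells (4815.5, 4867 and 4325.5) and of microglia (5285.5, 4164 and 3081). Between 68 and 97 barcode sequences were shared by each pair of libraries. No B cell shared its barcode with a B cell of another library, while 1 barcode of an estrus member was also in the diestrus library and 1 of a male member also in the diestrus library. Sex-linked genes followed the labels. The 50 members with a further B cell marker, described below, held 20, 51 and 0 UMIs of Xist in estrus, diestrus and males and 4 of Ddx3y in males only. T cells numbered 20 in estrus, 7 in diestrus and 20 in males, which gave 0.7, 2.57 and 1.15 B cells per T cell.

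The name of the cells was then checked on genes that the rule had not used. Of the 55 members, 50 carried at least 1 UMI of Cd79b (the second signalling subunit), Ms4a1 (CD20, a membrane protein of mature B cells) or Ighm (the heavy chain constant region of IgM); 36 carried all 3 and 12 carried 2 of them. The other 5 members, 4 from diestrus and 1 from males, had no UMI of these genes, nor of Ighd, Igkc, the lambda constant genes, Pax5 or Cd74. These 5 held 10353 to 16494 UMIs, 2 or 3 of them from Cd79a, while 1887 to 5563 came from Ptgds (18.2% to 35.1% of the barcode) and 99 to 155 from Trpm3, with Slc13a4 (7 to 19 UMIs) and Ogn (8 to 26 UMIs) also present. Ptgds, which encodes prostaglandin D synthase, is abundant in the leptomeninges, as is the sulfate transporter gene Slc13a4. In these 5 barcodes the data therefore went against the name B cell, and they enlarged the summed counts of the rule's members 1.92-fold in diestrus and 1.23-fold in males. Counts of genes below are given for all 55 first and then without these 5, and levels of named genes are those of the 50, which were 14 in estrus, 14 in diestrus and 22 in males (0.108%, 0.0942% and 0.135% of barcodes).

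**Figure D1:**
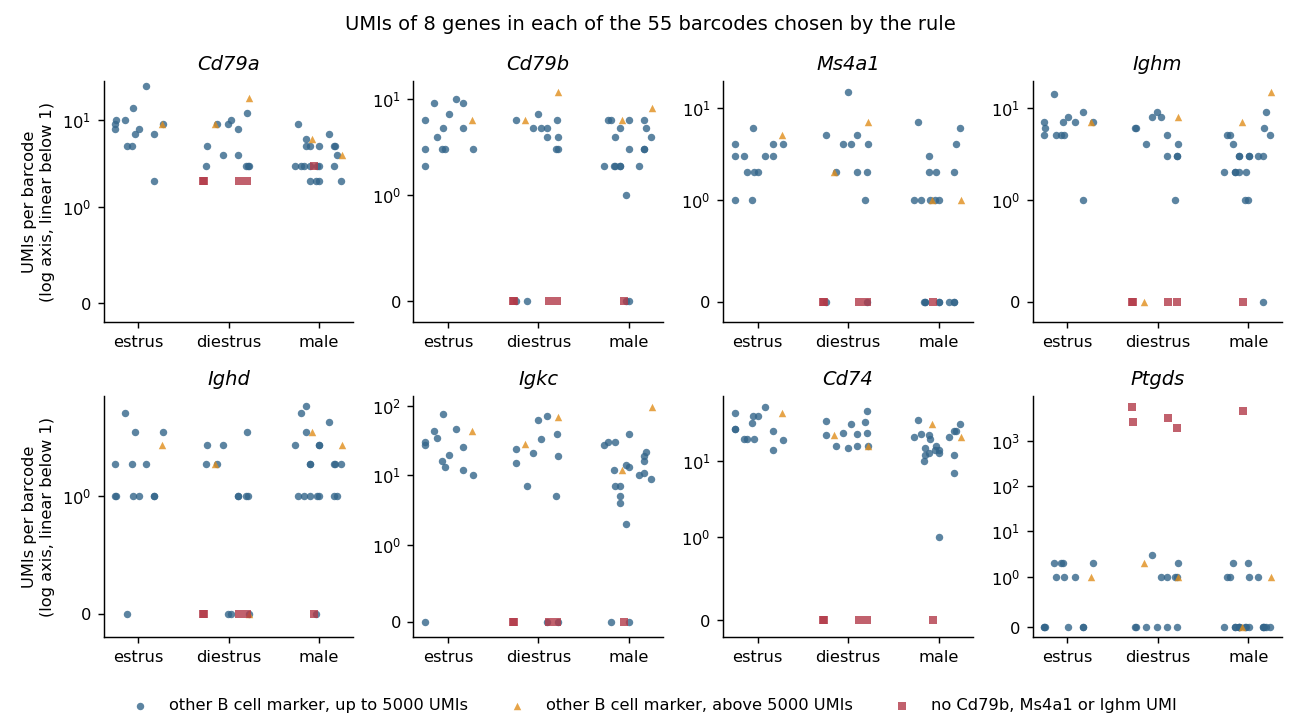
UMIs per barcode (y axis, log scale, linear below 1) of 8 genes, 1 panel each, in the 55 barcodes of the rule by library (x axis); 1 point is 1 barcode, blue circles have another B cell marker and up to 5000 UMIs, orange triangles have one and more UMIs, and red squares have none. The 4 diestrus squares and 1 male square hold 1887 to 5563 UMIs of Ptgds and 0 of Cd79b, Ms4a1, Ighm, Ighd, Igkc and Cd74.

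Among the 50, 5 barcodes exceeded 5000 UMIs and also carried RNA of another cell type. An estrus barcode of 12194 UMIs held 439 UMIs over 8 genes of mural cells, the contractile cells of vessel walls, among them 127 of Acta2, 102 of Tagln and 46 of Myh11. A diestrus barcode of 5487 UMIs and a male one of 6680 held 42 and 35 UMIs of an astrocyte list, with 37 and 55 of Lsamp. A diestrus barcode of 7780 UMIs held 38 UMIs of an endothelial list and 116 of a red cell and platelet list, and a male barcode of 8132 UMIs held 39 of the endothelial list. All 5 had B cell genes beside these, with 4 to 18 UMIs of Cd79a and 12 to 98 of Igkc. In the remaining 45 barcodes (13, 12 and 20 by library; 746 to 4574 UMIs) no barcode held more than 2 UMIs of the mural genes, 9 of the endothelial list, 3 of the astrocyte list, 11 of the glutamatergic neuron list or 11 of the microglia list, whereas red cell genes reached 69 UMIs in 1 of them. Comparisons between libraries, where 1 barcode can set a value, are therefore described in these 45. No caller of doublets (2 cells under 1 barcode) was run, and the limits of the rule were the only step against them.

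**Figure D2:**
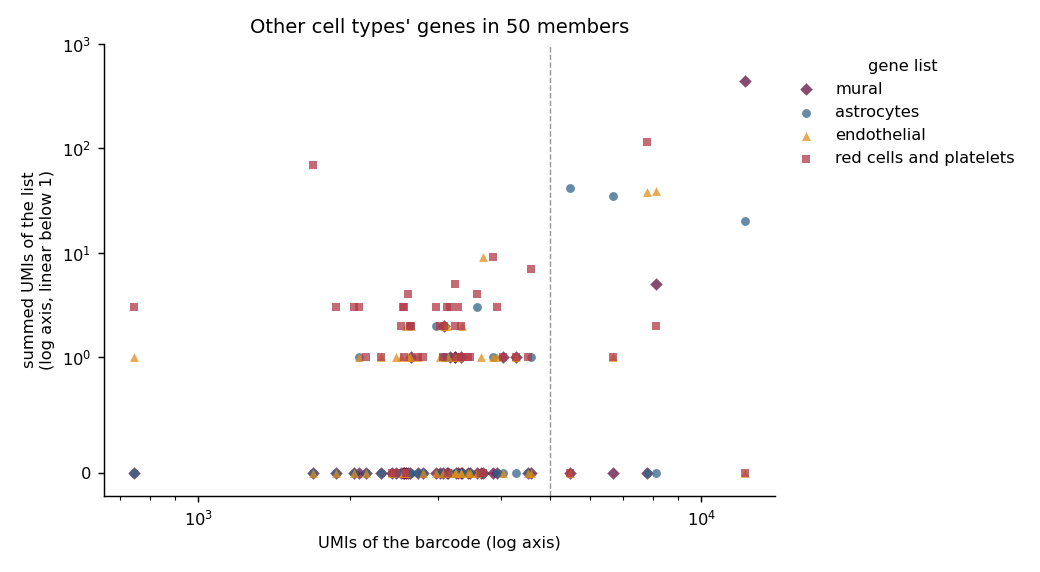
Summed UMIs of 4 gene lists of other cell types (y axis, log scale, linear below 1) against the barcode's total UMIs (x axis, log scale) in the 50 members with a further B cell marker; 1 point is 1 list in 1 barcode, and the dashed line is at 5000 UMIs. Barcodes above 5000 UMIs hold up to 439 UMIs of mural genes and up to 42 of astrocyte genes, against at most 2 and 3 in those below.

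The limits of the rule set which barcodes were counted. In all, 92 barcodes had at least 2 UMIs of Cd79a and 91 of them passed the gene and mitochondrial limits; 36 of these exceeded a limit on other cell types, mostly that on Cldn5, Mog and Gja1 (13 in estrus, 4 in diestrus, 7 in males). The median depth of the 36 was 12165 UMIs in estrus, 16790 in diestrus and 7149.5 in males, and 30 of them carried Cd79b, Ms4a1 or Ighm. Just inside the Cd79a threshold were 9 members with exactly 2 UMIs, 5 of them with another marker. Just outside it were 8 barcodes with 1 UMI that met every other limit, 2 of them with another marker.

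The antigen receptor itself was read from its constant region genes. Ighm lies at chr12:113418558-113422730 on the minus strand of mm10 (GRCm38) and Ighd, the IgD constant region, beside it at chr12:113406604-113416324. Levels are given as CPM, the UMIs of a gene per 1000000 UMIs of nuclear genes, summed over the B cells of a library; each molecule is counted once near its 3′ end, so a level was not divided by gene length. Where 3 values follow each other they are those of estrus, diestrus and males, in this order. Ighm measured 1741, 1365 and 1350 CPM, and Ighd at 543, 402 and 863 CPM. Of the 50 barcodes, 42 carried UMIs of both, 6 of Ighm only and 2 of Ighd only, the pattern of IgM and IgD on 1 cell that is typical of mature B cells that have not switched class. Switched heavy chains were nearly absent: 1 UMI of Ighg2b in estrus, 1 of Igha in diestrus, and 0 of Ighg1, Ighg2c, Ighg3 and Ighe. A count of 0 allows up to 56.2 CPM in estrus, 60.2 in diestrus and 47.1 in males (3 UMIs over the class).

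Ighm was not particular to B cells in these libraries. An Ighm UMI was present in 48 of all 55 members (87.3%), and also in 57.4% of T cells, 44% of border macrophages and 34.0% of microglia, types that do not make IgM. Cd79b was present in 46 of the 55 (83.6%) against 9.0% of microglia and 2.13% of T cells, and Ms4a1 in 40 of the 55 (72.7%) against 0.0241% of microglia and 0% of T cells. These shares are given for the 55, because the 50 were chosen on these 3 genes. Igkc, which chose neither set, was present in 45 of the 55 (81.8%) and in 0% of T cells. In microglia it was present in 3.44% in estrus against 0.0761% in diestrus and 0.115% in males, and in border macrophages in 5.66%, 0% and 0%. The other types were deeper, with the median depths given above. Thinned to 1000 UMIs per barcode, which left out 1 male B cell, 11 of 14 estrus, 10 of 18 diestrus and 13 of 22 male members kept a Cd79b UMI, against 14 of 14, 12 of 18 and 20 of 23 before thinning. In the same thinned barcodes Ighm remained in 11 of 14, 10 of 18 and 15 of 22 members and in 11.0%, 9.32% and 12.3% of microglia. An Ighm UMI alone therefore did not mark a B cell here, whereas Ms4a1 was close to absent from the other types. Among the 50, 2 barcodes had Ighm without Cd79b and Ms4a1. The diestrus one held 6 UMIs of Ighm and 24 of Igkc. The male one, of 746 UMIs, held 2 of Cd79a, 1 of Ighm, 0 of Igkc and 1 of Cd74, so its name rests on little.

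Kappa was the major light chain. Igkc (chr6:70726435-70726966, plus strand) measured 7489, 7930 and 6089 CPM, from 400, 395 and 388 UMIs. The lambda constant genes were lower: Iglc2 (chr16:19198396-19200351, minus strand) at 1254, 1927 and 1648 CPM, Iglc3 at 843, 642 and 942, and Iglc1 at 187, 723 and 910. Iglc2 and Iglc3 are near-identical copies, so how reads were split among the lambda genes is uncertain. Over the 50 barcodes kappa gave 1183 and lambda 509 UMIs, a lambda share of 30.1% that was 23.4% in estrus, 29.3% in diestrus and 36.5% in males.

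A mature B cell normally uses 1 light chain class, but lambda UMIs were found in almost every barcode. All 45 barcodes with Igkc also held lambda UMIs, from 1 to 41 with a median of 7, beside 2 to 98 of Igkc with a median of 20. Lambda exceeded kappa in 4 of these 45. Of the 5 barcodes without Igkc, 4 held 9 to 48 lambda UMIs and 1, the shallowest at 746 UMIs, held none. The lambda genes differed in proportion between these kinds of barcode: Iglc1, Iglc2 and Iglc3 gave 54, 216 and 133 UMIs in the barcodes with Igkc, and 50, 52 and 4 in those without. Variable segments were sparsely captured in this 3′ library, with 12, 20 and 17 UMIs in 8, 10 and 11 barcodes. Immunoglobulin UMIs outside B cells differed between libraries: Igkc was found in 4.89% of the other estrus barcodes but in 0.190% of those in diestrus and 0.172% in males. The lambda constant genes were rarer there: Iglc1, Iglc2 and Iglc3 gave 0 UMIs in the 47 T cells and the 350 border macrophages. In the 8291 microglia Iglc1 gave 0 UMIs, while Iglc2 and Iglc3 were present. The part of immunoglobulin UMIs from outside in the lambda UMIs of B cells was not tested.

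**Figure D3:**
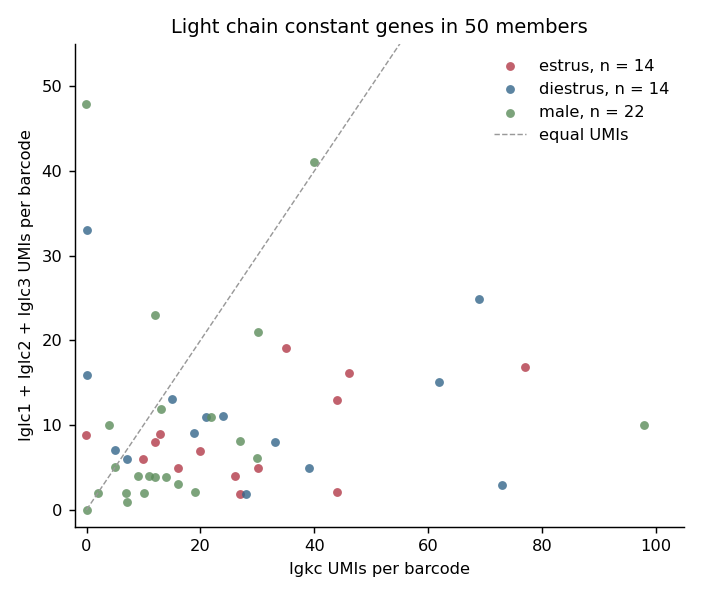
Kappa (Igkc) against lambda (Iglc1, Iglc2 and Iglc3 summed) UMIs in each of the 50 B cells with a further marker, coloured by library; 1 point is 1 barcode and the dashed line marks equal UMIs. 45 barcodes have both, 4 have lambda alone with 9 to 48 UMIs, and 1 has neither.

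Each list of other stages of the B lineage was present in part in the 50 members. The lists are not particular to B cells. The pro-B and pre-B list, the marginal zone and B1 list and the germinal centre list had UMIs in 43, 32 and 18 of the 47 T cells. A UMI of a list therefore names no stage. Of 15 genes of the pro-B and pre-B stages 8 had a UMI, with 79 UMIs in 28 barcodes, while Rag1, Rag2, Dntt, Vpreb1, Vpreb2, Igll1 and Myb, which act in receptor gene assembly and in progenitors, gave 0 UMIs in all 3 libraries. Of 8 germinal centre genes 4 had a UMI (12 UMIs in 8 barcodes), with S1pr2, Gcsam and Fas among those at 0, and of 13 genes of marginal zone and B1 cells 10 had one (57 UMIs in 31 barcodes). Of 13 plasma cell genes 7 had a UMI (86 UMIs in 39 barcodes), with Jchain and Prdm1 among those at 0. Of 16 proliferation genes 7 had a UMI (144 UMIs in 45 barcodes), and Mki67 and Top2a gave 0. Mzb1, a chaperone gene of B and plasma cells, gave 7, 10 and 15 UMIs in 18 barcodes, and Irf4, a factor of activated B and plasma cells, 9, 2 and 3 UMIs. Vpreb3, which is expressed from early stages into immature B cells, measured 225, 522 and 157 CPM, in 19 of the 50 barcodes. Most of its diestrus UMIs came from a barcode of 2586 UMIs, with 12, and from the one of 7780 UMIs, with 7. Fcer2a (CD23), Fcmr (a receptor for IgM) and Cd55 (a complement regulator), genes of mature naive cells, were at 262, 321 and 188 CPM, at 337, 622 and 502 CPM, and at 356, 482 and 785 CPM in estrus, diestrus and males.

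The B cells were compared with the T cells of the same libraries by edgeR's quasi-likelihood test on summed counts, with the 3 libraries as replicates and as a block (2 residual degrees of freedom). Here p-values rest on the UMI counts and on a spread between these 3 libraries that edgeR estimates in part by pooling over genes. A very small p-value therefore does not measure the spread of that gene alone. The 3 libraries also differ in group. With all 55 members, 1252 genes were tested; 164 were higher in B cells (13.1%) and 207 lower (16.5%) at a Benjamini-Hochberg adjusted p under 0.05. Without the 5 barcodes that lacked markers, 171 of 876 were higher (19.5%) and 144 lower (16.4%), and 123 of the higher genes were in both sets of calls (75% of 164 and 71.9% of 171), as were 143 of the lower ones (69.1% of 207 and 99.3% of 144). In the 45 barcodes up to 5000 UMIs, 107 of 627 genes were higher (17.1%) and 123 lower (19.6%). T cells were chosen on Cd3 genes and B cells on Cd79a, so these genes were left out of the statements below, and the counts for other lineage genes describe the cells chosen.

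All 8 tested genes of the receptor and coreceptor list (Igkc, Iglc1, Iglc2, Iglc3, Ighm, Ighd, Cd79b and the coreceptor subunit Cd81) were higher in B cells with 55 and with 50 members, with a median log2 fold change of 7.73 in the 55 (5.96 with genes at 0 set to their bound of 3 UMIs), against 0.04 over all tested genes. Of the 8, 4 (Igkc, Iglc1, Iglc2 and Iglc3) were at 0 in T cells and were tested only through B cells. In the 50, Igkc was at least 521.9-fold higher, Iglc2 at least 118.2-fold and Iglc3 at least 60.4-fold. Cd79b and Ighm helped to choose the 50, so their values are those of the 55. Cd79b was higher by a log2 fold change of 7.52 ± 0.58 (adjusted p = 6.02e-36, edgeR). Ighm, found in many T cells, was higher by 2.85 ± 0.32 (adjusted p = 2.76e-17, edgeR). The ± here and below is an approximate SE, the size of the log2 fold change divided by the square root of the test's F statistic.

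Of the signalling list, 10 genes were tested with the 55 members, 6 of them higher and 2 lower; with the 50 it was 7 higher and 1 lower of 8. Syk, the kinase that binds the phosphorylated receptor, measured 543, 542 and 706 CPM and at 0 in T cells (adjusted p = 1.32e-26, edgeR). Blk, a Src family kinase of B cells, was at 393, 261 and 377 CPM and Blnk, the adaptor that links Syk to its targets, at 243, 301 and 345 CPM, both at 0 in T cells. Lyn, the kinase that starts the cascade, was at 674, 923 and 612 CPM against 36.7, 0 and 24.5 in T cells, a log2 fold change of 4.68 ± 0.46 (adjusted p = 1.5e-22, edgeR). Every B cell library was above every T cell library for these 4 kinases and adaptors. Prkcb, a protein kinase C that acts downstream of both antigen receptors, was at 655, 662 and 675 CPM against 202, 165 and 221 in T cells, with a log2 fold change of 1.79 ± 0.33 (adjusted p = 7.79e-07, edgeR). Ptprc, the phosphatase CD45 of all leukocytes, was lower in B cells, at 543, 723 and 675 CPM against 971, 1223 and 1042 (log2 fold change −0.66 ± 0.26, adjusted p = 0.0366, edgeR). Malt1, which relays the signal to NF-κB, passed in the 50 (1.07 ± 0.41, adjusted p = 0.0265, edgeR) but not in the 55 (adjusted p = 0.155) or the 45 (adjusted p = 0.0842).

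Transcription factors of the lineage were higher as well. With 55 members 5 of 7 tested factors were higher (Ebf1, Pax5, Mef2c, Foxp1 and Bach2) and Ikzf1 lower; with 50 it was 9 of 10, adding Pou2af1, Bcl11a, Pou2f2 and Ikzf3, and Ikzf1 had a log2 fold change of −0.51 ± 0.32 (adjusted p = 0.226, edgeR). Ebf1 and Pax5 set and maintain B cell identity. Ebf1 measured 1985, 2931 and 2715 CPM and at 0 in T cells, at least 187.5-fold higher. Pax5 was at 599, 562 and 502 CPM and at 0 in T cells. Factors that T cells use too differed less: Foxp1, at 1591, 2028 and 2072 CPM against 944, 628 and 809, by 1.28 ± 0.22 (adjusted p = 5.2e-08, edgeR), and Bach2, which restrains plasma cell formation, at 1367, 1184 and 1177 CPM against 586, 397 and 454, by 1.43 ± 0.27 (adjusted p = 9.19e-07, edgeR). For both, the lowest B cell library was above the highest T cell library.

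Of 12 tested genes of mature naive B cells, 7 were higher with 55 and with 50 members: Bank1 (a scaffold of receptor signalling), Ighd, Fcmr, Cd55, Ralgps2, Cd37 and Fcer2a. Bank1 was at 1348, 1706 and 1930 CPM and at 0 in T cells, at least 123.5-fold higher. Some of that list are shared with T cells: Klf2, a factor of quiescent lymphocytes, had a log2 fold change of 0.26 ± 0.23 (adjusted p = 0.43, edgeR). Ltb, which encodes lymphotoxin beta, had 0.32 ± 0.31 (adjusted p = 0.469, edgeR). Lower in B cells were Il7r, the interleukin 7 receptor of T cells and B progenitors, at 0, 0 and 15.7 CPM against 1283, 562 and 1018 (−6.88 ± 0.62, adjusted p = 4.03e-26, edgeR), and the survival gene Bcl2, at 131, 261 and 330 CPM against 989, 760 and 1079 (−1.93 ± 0.33, adjusted p = 4.47e-08, edgeR). The integrin gene Itgb1 (−1.59 ± 0.39, adjusted p = 0.000242, edgeR) and the selectin ligand gene Selplg (−1.91 ± 0.50, adjusted p = 0.000642, edgeR), both used to leave the blood, were lower too. Of T cell genes outside the choice of T cells, the chemokine gene Ccl5 was at least 116.3-fold lower in the 50 B cells and the T cell receptor gene Trbc1 at least 43.3-fold lower. Over the T cell list the 50 held 47 UMIs, and 9 of its 15 genes, among them Trac, Cd4 and Cd8a, were at 0.

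Antigen presentation genes divided into the 2 MHC classes. All 6 tested MHC class II genes were higher in B than in T cells with 55 and with 50 members. H2-DMb2 was among the 6 only with 55, and H2-Ob only with 50. Of the 6, 5 with 55 members and 4 with 50 were at 0 in T cells, so they were tested only through B cells. No class I gene was higher, and 4 of 5 (B2m, H2-K1, H2-D1 and H2-Q7) were lower with 55 and 3 of 5 with 50. Cd74, the invariant chain that guides class II molecules to the peptide loading compartment, measured 7920, 6786 and 6309 CPM and at 0 in T cells, at least 513.1-fold higher. H2-Aa, H2-Ab1 and H2-Eb1, the chains that display peptide, were at 2602, 2068 and 2323 CPM, at 2041, 1566 and 1883 CPM, and at 2153, 1666 and 1899 CPM in estrus, diestrus and males; all 3 were at 0 in T cells and at least 172.1-fold, 135.4-fold and 140.7-fold higher. H2-DMa, which loads the peptide, was at 412, 281 and 267 CPM against 27.5, 0 and 36.8, with a log2 fold change of 3.63 ± 0.62 (adjusted p = 6.56e-08, edgeR). B2m, the class I light chain, was at 843, 622 and 549 CPM against 1548, 1752 and 1018 in T cells (−0.98 ± 0.24, adjusted p = 0.000332, edgeR), and H2-K1 at 786, 622 and 643 CPM against 1356, 1620 and 993 (−0.82 ± 0.25, adjusted p = 0.00363, edgeR). H2 class I genes resemble each other, so the split of reads among them is uncertain. H2-D1 did not pass in the 50 (−0.51 ± 0.25, adjusted p = 0.11, edgeR). Ciita, the coactivator that switches class II genes on, was sparse, with 9, 3 and 3 UMIs in 11 barcodes.

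The sequences before the start of these genes are shown because the class II genes were higher together. Windows from RefSeq's GRCm38.p6 annotation were searched for 7 of 10 class II genes and for Cd79a. Of 14 genes asked for, 8 were searched. Cd74, the class II gene with the highest level in B cells, is on the list of 10 but was left out of the search. The counts below do not cover it, and they do not describe the whole class II list. Absence from this set does not mean that a gene lacked an entry. The 250 bases before the annotated start are printed 5′ to 3′ on the gene's strand, with searched motifs in capitals. The Y box (GATTGG, read on both strands, bound by the factor NF-Y) was found in 7 of 8 class II windows, at least 1 for each of the 7 genes, against 14.6% of 32851 promoters of the same length. For H2-DMa, the window at chr17:34122582-34122831 had no match. Its window at chr17:34125268-34125517 had the Y box at −199 to −194, farther from the start than in the other genes. The X box (CTAGCAAC, both strands, bound by the RFX complex) was found in H2-Eb1 and H2-Ob, against 1.13% of promoters. In H2-Eb1 the X box lay at −94 to −87 and Y boxes at −60 to −55 and −35 to −30, counted from the start site. In H2-Ob the X box lay at −90 to −83 and the Y box at −58 to −53, and in H2-Aa a Y box lay at −49 to −44. The octamer (ATGCAAAT), the EBF motif (CCCNNGGG) and the PU.1 core (GAGGAA), searched on both strands, are in 1.6%, 11.8% and 23.3% of promoters; Cd79a held the PU.1 core as its reverse complement at −140 to −135, and none of these motifs overlapped another in the printed windows. A match describes these letters only. The windows are H2-Eb1 at chr17:34305617-34305866 (plus), H2-Ob at chr17:34238655-34238904 (plus), H2-Aa at chr17:34287824-34288073 (minus) and Cd79a at chr7:24897247-24897496 (plus).
H2-Eb1: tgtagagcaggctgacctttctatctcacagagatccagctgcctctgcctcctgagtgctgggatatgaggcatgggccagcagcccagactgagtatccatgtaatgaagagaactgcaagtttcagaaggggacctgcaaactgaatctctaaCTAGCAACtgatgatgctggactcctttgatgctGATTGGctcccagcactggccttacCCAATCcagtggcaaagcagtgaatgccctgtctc
H2-Ob: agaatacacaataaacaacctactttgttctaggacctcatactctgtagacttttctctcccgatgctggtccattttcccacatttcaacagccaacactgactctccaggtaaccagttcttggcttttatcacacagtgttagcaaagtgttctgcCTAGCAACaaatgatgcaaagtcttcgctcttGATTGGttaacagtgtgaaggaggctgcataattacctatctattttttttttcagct
H2-Aa: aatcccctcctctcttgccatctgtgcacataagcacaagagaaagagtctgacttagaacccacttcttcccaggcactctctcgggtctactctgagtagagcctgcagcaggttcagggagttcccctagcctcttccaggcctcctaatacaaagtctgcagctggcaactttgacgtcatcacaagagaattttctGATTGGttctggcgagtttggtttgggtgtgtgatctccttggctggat
Cd79a: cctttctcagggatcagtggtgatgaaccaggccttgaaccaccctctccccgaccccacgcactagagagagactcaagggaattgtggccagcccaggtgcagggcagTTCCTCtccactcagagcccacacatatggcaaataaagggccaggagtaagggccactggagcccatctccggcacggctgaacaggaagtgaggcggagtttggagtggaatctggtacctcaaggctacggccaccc

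Border macrophages, which also present antigen, were the second cell type compared in the same way. With 55 members, 393 of 3396 genes were higher in B cells (11.6%) and 604 lower (17.8%); with the 50, 446 of 3121 were higher (14.3%) and 659 lower (21.1%), with 340 higher and 562 lower genes in both sets; in the 45, 445 of 3050 were higher (14.6%) and 679 lower (22.3%). MHC class II genes were higher in B cells than in these macrophages as well, 7 of 9 tested with the 55 and 8 of 9 with the 50, with a median log2 fold change of 2.26 in the 50 against −0.03 over all genes. Cd74 was at 702, 1423 and 1510 CPM in the macrophages of estrus, diestrus and males, and B cells were higher by 2.63 ± 0.28 (log2; adjusted p = 8.85e-10, edgeR). H2-Aa was at 393, 600 and 521 CPM there (2.26 ± 0.29, adjusted p = 3.47e-08, edgeR). Few macrophages carried these levels: a Cd74 UMI was present in 14.5%, 17.4% and 17.1% of them and an H2-Aa UMI in 5.03%, 7.44% and 7.14%, whereas Cd74 was present in all 50 B cells. H2-Ob, a chain of the peptide loading regulator H2-O that B cells are known for, was at 449, 221 and 439 CPM in B cells against 19.3, 9.67 and 8.14 in macrophages (4.78 ± 0.44, adjusted p = 2.22e-11, edgeR). Of 8 genes of the costimulation list 3 were tested, and 2 were lower and 1, Cd69, higher in B cells: Cd86 was at 93.6, 40.2 and 220 CPM in B cells against 603, 535 and 448 (−2.10 ± 0.40, adjusted p = 5.33e-05, edgeR), and Cd83 was lower by 1.31 ± 0.35 (log2; adjusted p = 0.00283, edgeR).

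Some signalling genes that set B cells apart from T cells did not separate them from macrophages. Lyn had a log2 fold change over macrophages of 0.12 ± 0.29 (adjusted p = 0.807, edgeR), Blnk 0.64 ± 0.32 (adjusted p = 0.123) and the factor Mef2c 0.33 ± 0.27 (adjusted p = 0.387), while Syk was higher by 2.19 ± 0.31 (adjusted p = 2.89e-07, edgeR) and Prkcb by 1.29 ± 0.29 (adjusted p = 0.00049, edgeR). Of the signalling list, 4 of 16 genes were higher and 1 lower with the 55, and 6 of 17 higher and 1 lower with the 50. Of 14 tested transcription factors 8 were higher and 2 lower in both sets; the lower ones were Spi1 (PU.1, used by B and myeloid cells), by −3.15 ± 0.49 (adjusted p = 1.68e-06, edgeR), and Etv6. Fcgr2b, an inhibitory Fc receptor, was at 37.4, 40.2 and 31.4 CPM in B cells against 220, 388 and 391 (−3.16 ± 0.49, adjusted p = 1.58e-06, edgeR). Genes of mature naive B cells were higher in 13 of 14 cases with the 55 and 14 of 14 with the 50. Ms4a1 was at least 370-fold higher than in macrophages in the 55, which were not chosen on it; in the 50, Pax5 was at least 359-fold and Fcmr at least 317-fold higher, while Pf4, a chemokine gene of border macrophages, was at least 115-fold lower in B cells. All 8 tested genes of the microglia list were lower in B cells, a direction that the choice of both classes on C1qa favours.

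**Figure D4:**
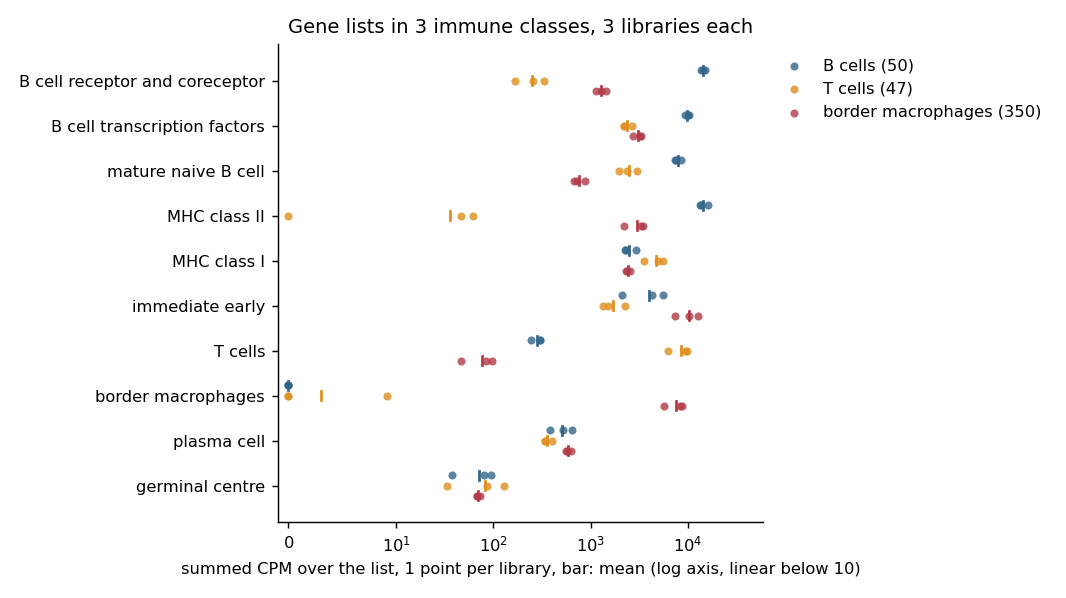
Summed CPM of 10 gene lists (x axis, log scale, linear below 10) in the 50 B cells with a further marker, the T cells and the border macrophages; 1 point is 1 library and the bar is the mean of the 3. B cells lie highest for the receptor and MHC class II lists, at 13250 to 16158 CPM for the latter, T cells lie highest for MHC class I, and macrophages for immediate early genes.

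Few cytokine genes were captured in the B cells. Il10, Il6, Tnf, Lta and Csf2 gave 0 UMIs in the 50 B cells, and Ltb was at 880, 422 and 502 CPM in estrus, diestrus and males, against 8.25, 1.61 and 12.2 CPM in macrophages (6.62 ± 0.44, log2, edgeR). Immediate early genes, which rise within minutes of stimulation and also during tissue dissociation, were lower in B cells than in macrophages in 12 of 15 tested genes with the 55 members, and 1 gene, Cd69, was higher. Jun was at 93.6, 80.3 and 78.5 CPM against 1893, 1178 and 993 (−3.93 ± 0.39, adjusted p = 1.23e-10, edgeR). Over T cells 2 of 7 were higher with the 55 (Fos and Btg2) and 4 of 6 with the 50 (adding Jund and Junb). Fos was at 580, 422 and 330 CPM in the 50 against 64.1, 0 and 36.8 in T cells (3.44 ± 0.47, adjusted p = 5.69e-12, edgeR), but 28 of the 31 estrus UMIs came from the barcode with mural genes, and Fos had too few UMIs to be tested in the 45. Junb, at 0.91 ± 0.32 in the 50 (adjusted p = 0.0163, edgeR), did not pass in the 55 (adjusted p = 0.199) or the 45 (adjusted p = 0.0517).

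The libraries differ in estrous stage and sex, and the sex steroid receptors read here were hardly captured. Esr2 and Pgr, encoding estrogen receptor beta and the progesterone receptor, gave 0 UMIs in the 50 B cells, and Esr1, encoding estrogen receptor alpha, gave 1 UMI in diestrus. These counts cannot order the libraries. The glucocorticoid receptor gene Nr3c1 measured 318 CPM (Poisson 95% interval 185 to 510), 181 CPM (82.6 to 343) and 235 CPM (132 to 388), and these intervals overlapped. Nr3c1 was higher in B than in T cells by 1.55 ± 0.52 (log2; adjusted p = 0.00934, edgeR).

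Libraries were compared by the ratio of summed CPM for genes with at least 30 UMIs over the pair, and a gene past 2-fold was counted, with no test. Between estrus and diestrus 259 of 665 genes were past 2-fold with the 55 members (38.9%; 146 higher and 113 lower in estrus, and 67 and 144 when scaled by TMM factors), 74 of 439 with the 50 (16.9%; 36 higher and 38 lower) and 43 of 321 with the 45 (13.4%; 18 and 25). Between estrus and males it was 102 of 573 (17.8%; 55 and 47, and 36 and 66 with TMM), 78 of 512 (15.2%; 37 and 41) and 56 of 381 (14.7%; 28 and 28). Between diestrus and males it was 129 of 801 (16.1%; 68 and 61, and 77 and 52 with TMM), 36 of 503 (7.16%; 18 and 18, and 16 and 23 with TMM) and 30 of 363 (8.26%; 12 and 18). With the 55, the lowest genes of estrus over diestrus were led by Trpm3 and Apod, and the highest genes of estrus over diestrus and over males by Acta2, Myh11 and Tagln, genes that came from the Ptgds-rich barcodes and from the mural one. Genes named next are the extremes within the 45.

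Several of the largest ratios had the same direction in the other cell types of the libraries. Cmss1 had 217 UMIs in estrus and 38 in diestrus B cells, a log2 ratio of 2.35 (exact interval 1.85 to 2.89), and its level of 5169, 1011 and 1799 CPM in estrus, diestrus and males stood beside 5570, 1091 and 1116 in T cells and 4051, 832 and 1459 in microglia. Gm42418, a gene model that overlaps ribosomal RNA sequence, was at 23153, 7501 and 13991 CPM in B cells and at 17622, 6940 and 11415 in microglia. Cox7a2 and Cox6b1, genes of the respiratory chain picked here for their ratios, were lower in estrus: Cox7a2 had 5 UMIs in estrus and 26 in diestrus (−2.53, −4.28 to −1.13), and Cox6b1 was at 95.3, 426 and 607 CPM in B cells, at 238, 463 and 564 in T cells and at 184, 334 and 427 in microglia. Nrgn, a gene of neurons, was at 119, 559 and 566 CPM in B cells and at 112, 429 and 636 in microglia. For these 5 genes the estrus library stood apart on the same side in B cells, T cells and microglia.

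Other ratios were not shared across cell types to the same extent. Klf2 measured 1953, 904 and 667 CPM in B cells, a log2 ratio of estrus over males of 1.55 (0.95 to 2.18), and at 1530, 893 and 797 in T cells but 40, 63 and 62 in microglia. Txnip, a regulator of redox state and glucose uptake, had 49 UMIs in estrus against 12 in diestrus (1.87, 0.94 to 2.92) and 16 in males, while T cells were at 522, 529 and 282 CPM. Iglc1 had 9 UMIs in estrus, 26 in diestrus and 48 in males, and in the 50 members 1 male barcode gave 31 of 58 male UMIs. Hba-a1 had 6, 4 and 41 UMIs, of which 31 of the male ones came from 1 barcode. Red cell genes summed over their list were at 738, 612 and 2123 CPM in the B cells of estrus, diestrus and males; their part in other differences was not tested.

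The summed level of immediate early genes was lowest in male B cells. Summed over the list the estrus level was 4764 CPM (Poisson interval 4127 to 5472), the diestrus level 5240 CPM (4534 to 6025) and the male level 1941 CPM (1572 to 2370) in the 45, against 5561, 4316 and 2119 CPM in the 50. The log2 ratio of estrus over males was 1.30 (0.94 to 1.66) and of diestrus over males 1.43 (1.07 to 1.80) in the 45, and estrus over diestrus −0.14 (−0.43 to 0.15). Per barcode, the sum had a median of 29.6 per 10000 nuclear UMIs in estrus (6.04 to 289), 27.5 in diestrus (4.07 to 159) and 14.2 in males (0 to 66.0), so that barcodes of the 3 libraries overlapped widely. A few barcodes carried much of the sums: 1 of 13 estrus barcodes was at 289 and the next at 63.0, and 3 of 12 diestrus barcodes were at 120, 150 and 159 and the next at 42.5, while the highest male one was at 66.0. Among its genes, Jund was at 1143, 585 and 324 CPM, and Junb at 667, 958 and 283 CPM with 15 of 28 estrus UMIs and 13 of 36 diestrus UMIs from 1 barcode each. Cd83, a marker of activated B cells, was at 453, 532 and 60.7 CPM, from 19, 20 and 3 UMIs. The list was lower in male cells of other types too. It was at 2245, 1521 and 1336 CPM in T cells, 16363, 9078 and 8282 in microglia, and 12707, 10427 and 7460 in border macrophages. Diestrus lay near males in T cells and microglia, but stood between estrus and males in border macrophages. The difference between cell types was not tested.

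**Figure D5:**
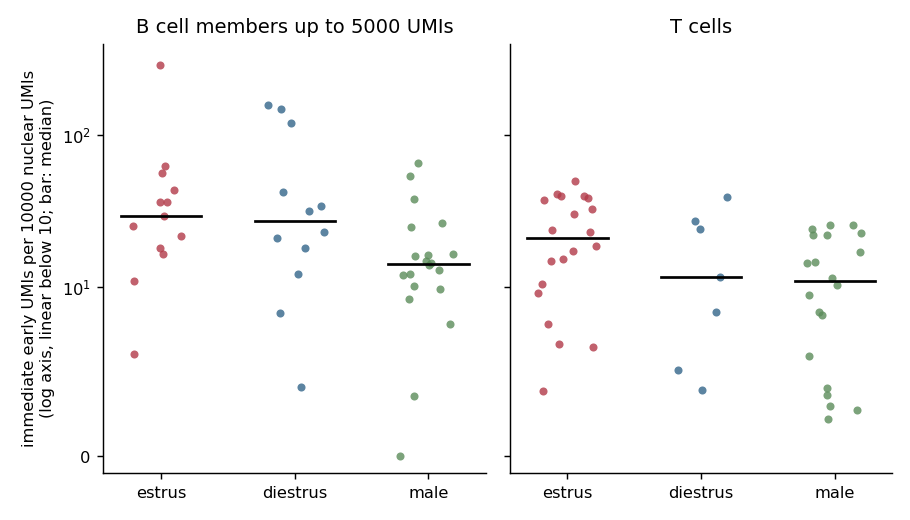
Summed immediate early UMIs per 10000 nuclear UMIs (y axis, log scale, linear below 10) by library in the 45 B cells up to 5000 UMIs and in T cells; 1 point is 1 barcode and the bar is the median. Male B cells have a median of 14.2 against 29.6 in estrus and 27.5 in diestrus, and the ranges overlap.

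MHC class II genes were somewhat higher in estrus B cells. The summed class II level was 16158, 13250 and 13638 CPM in the 50. The log2 ratio of estrus over diestrus was 0.29 (0.14 to 0.43) in the 50 and 0.27 (0.11 to 0.42) in the 45, and of estrus over males 0.24 (0.11 to 0.38) and 0.34 (0.19 to 0.49); the intervals cover counting error only. Each of the 6 class II genes with enough UMIs was higher in estrus in both pairs, and the one past 2-fold was H2-Ob over diestrus, at 1.02 (−0.06 to 2.20) in the 50 and 1.36 (0.15 to 2.73) in the 45, from 23 against 8 UMIs. H2-DMb2, below the limit of 30 UMIs in the 45, went the other way, with 5, 18 and 12 UMIs. With all 55 members the same ratio over diestrus was 1.23 (1.08 to 1.37), enlarged by the UMIs of the barcodes without markers in the diestrus total. Diestrus and male B cells differed by −0.04 (−0.19 to 0.11) in the 50. With 1 library per group, these ratios compare libraries and cannot be told apart from differences between dissociations or mice.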

How the data were processed

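Single-cell libraries of 3 groups (estrus, diestrus, male; 2 pooled mice each) were analysed from the UMI counts per gene and barcode that the authors deposited. Per the submitters' processing notes these were made with Cell Ranger 3.0.2 on mm10, whereas the file headers name Cell Ranger 7.0.0; the sources used here do not say whether introns were counted or how overlapping genes were resolved. No filter beyond the deposited barcodes was applied except the limits of the rule, and no doublet caller was run. The 55 members and all gene lists were chosen with earlier results of these data known. The sets of 50 and 45 members, the mural genes and the limits on Ptgds and Slc13a4 used below were chosen after seeing the data. Counts were summed per library and cell type. CPM were computed over nuclear genes, leaving mitochondrial genes out. B cells were compared with T cells (at least 2 UMIs over Cd3e, Cd3d and Cd3g) and border macrophages (at least 2 UMIs each of C1qa and Mrc1) by edgeR 4.0.16 in R 4.3.3 (TMM, filterByExpr, quasi-likelihood test, library as a block, adjusted p under 0.05). The block pairs cell types that came from the same library, that is the same mice. Ratios between libraries used genes with at least 30 UMIs and a pseudocount of 1 CPM, with conditional binomial intervals at 95%. On simulated counts, 85% of 200 changed genes were recovered in the design with T cells and 83.5% in that with macrophages, with 4 and 6 false calls. The changed genes were drawn from genes with higher counts and all changed by the same fold. Dispersion was fixed and libraries differed in depth only, so these shares do not describe sparse genes or the real spread between libraries. DESeq2 1.42.0, other filters, scalings and member limits were tried as alternatives. Named genes were the 8 highest and 8 lowest ratios per pair of libraries, the 10 highest and 10 lowest called genes per cell type comparison at 100 CPM or more, and members of the 34 lists; not all are printed, and some genes of the lists are not reported here. Intervals cover counting error only.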

Additional observations from a re-analysis of the deposited data

How the results depend on the processing

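The share of B cells kept its value within its interval under every limit tried except one: with no UMI of any gate gene of another type it was 0.0539% in estrus, 0.0337% in diestrus and 0.0734% in males. Against T cells, the 164 higher and 207 lower genes became 72 and 70 with the DESeq2 Wald test, 304 higher genes without a filter on low counts, 121 lower genes without barcodes above 2 times the median UMIs, and 107 higher and 123 lower in the 45 members. Leaving out 1 library at a time gave 132 to 181 higher and 126 to 175 lower genes, with the lowest count of 126 without the male library; in the 50 members it gave 116 to 164 higher and 116 to 142 lower. Against border macrophages, the 393 higher and 604 lower genes became 219 higher with the DESeq2 Wald test and 1107 lower without a filter; leaving out 1 library gave 261 to 383 higher (261 without the male library) and 440 to 623 lower, and in the 50 members 289 to 420 and 438 to 610.

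With no replicate block, that is without pairing cell types by library, 124 genes were higher and 112 lower than in T cells, and 399 were higher and 605 lower than in border macrophages.

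Between libraries, the count past 2-fold for estrus over diestrus was 74 in the 50 members, 75 there with TMM factors, 43 in the 45, 1087 with a minimum of 10 UMIs and 76 with at least 3 UMIs of Cd79a. For estrus over males it was 56 in the 45 and 712 with a minimum of 10 UMIs. For diestrus over males it was 36 in the 50, 39 there with TMM factors, 30 in the 45, 821 with a minimum of 10 UMIs and 61 with at least 3 UMIs of Cd79a. The balance of higher and lower genes turned with the scaling in the 55: for estrus over diestrus from 146 higher and 113 lower to 67 and 144 with TMM factors and to 63 and 113 with each cell weighted alike, and for estrus over males from 55 and 47 to 36 and 66 and to 45 and 58. The cause of these moves was not tested. In all, 80 alternative values of these total counts and shares stayed within 1.5 times or within their interval and 28 did not. Depth limits every statement on single genes: a count of 0 over a library's 14 to 22 cells still allows a level of up to 3 UMIs.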

Other observations

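Barcodes rich in Ptgds offered a count of Cd79a UMIs outside B cells. With at least 50 UMIs of Ptgds and at least 2 of Slc13a4 there were 97 barcodes, 11 in estrus, 68 in diestrus and 18 in males. These limits were set after the 5 members without other B cell markers had been seen. Of the 97, 9 carried a Cd79a UMI (9.28%), 0 in estrus, 6 in diestrus and 3 in males. Those 5 members were among the 9 and had been chosen on Cd79a, so this share is partly set by the choice. Of the 92 that did not meet the rule for B cells, 4 had a Cd79a UMI, against 110 of 44033 of the other barcodes outside the rule (0.250%, 0.205% to 0.301%).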
